A study of Mus musculus with 18 samples.

Results

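The ovary of newborn Elavl2 knockout mice was compared with the ovary of wild type embryos at a younger stage. The comparison rests on 6 of the 18 arrays of the series. P0 KO 1 to 3 were whole gonads of XX newborns (P0, the day of birth) knocked out for Elavl2, and E17.5 WT 1 to 3 were whole gonads of XX wild type embryos before birth (E17.5, in embryonic days). The arrays were chosen by their titles, and no measured value entered the choice. The question was whether the newborn knockout ovary lies near the younger normal ovary or in a state of its own, so the wild type newborns, P0 WT 1 to 3, are given beside many of the results. The other 9 arrays were of E15.5 ovaries of both genotypes and of E17.5 knockout ovaries. They entered the fit for its estimate of spread, and the E17.5 knockout arrays also for its scan day term. Stage and genotype differ together between P0 KO and E17.5 WT and cannot be told apart. Strain, litter and the deleted stretch of Elavl2 are not given in the sources used here. The labels call every sample mixed and name no animal, so nothing says that replicates are separate animals, and a p-value here weighs a difference only against the spread between these samples.

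ELAVL2 is an RNA-binding protein of the ELAV (Hu) family, whose members bind AU-rich stretches of messenger RNA and change its stability, localization and translation. Before birth the germ cells of the mouse ovary enter meiosis, recombine their chromosomes and come to rest late in prophase. Around birth the germ cell nests break up, each surviving oocyte is enclosed by pregranulosa cells as a primordial follicle, and oocytes switch on the genes of the zona pellucida and of the egg's maternal stores. Whole ovaries were measured, so fewer cells of a type and less RNA per cell cannot be told apart in any result here.

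A level is the log2 signal of a gene's brightest probe less the 75th percentile of its array, so 0 stands for that percentile. The summed level of a list is the log2 of the sum of its members' unlogged levels, so its brightest genes weigh most. A difference is the log2 difference fitted by limma over all 18 arrays with group and scan day as terms. It can differ from the difference of the group means, even in sign, because E17.5 WT 3 was scanned on another day than the other arrays compared. Only the E17.5 groups held arrays of both scan days, so the E17.5 knockout arrays also bear on the fitted difference. For the gene Miox the group means were -3.31 in E17.5 WT and -3.57 in P0 KO, while the fitted difference was 0.25. Errors given with ± are standard errors of the fitted difference, and an adjusted p is limma's with Benjamini-Hochberg adjustment over all 19294 genes tested. A gene was called at an adjusted p under 0.05, and rose, fell, higher and lower are written of called genes. P0 KO 3 lay on one slide with E17.5 WT 1 and 2, P0 KO 1 and 2 lay on another, and the P0 WT arrays lay on a slide of their own. A difference given within the shared slide is that of P0 KO 3 alone from the mean of E17.5 WT 1 and 2. It holds the slide constant but rests on 1 knockout array. A deviation of that array cannot be told apart from genotype and stage in it, and no call is given. Between 63.1% and 75.7% of probes were well above background on an array of the series. With 3 arrays in each group, the group size sets how small a difference can be called.

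The ovary's defining genes were measured in all 9 arrays. Foxl2, the transcription factor of granulosa cells, had levels of -2.48, -2.47 and -2.27 in E17.5 WT and of -2.23, -1.94 and -2.24 in P0 KO. The signalling genes Rspo1 and Wnt4 and the anti-Müllerian hormone receptor gene Amhr2 were also well above background on every one of these arrays. The germ cell RNA helicase gene Ddx4 lay at 3.47, 3.46 and 3.78 in E17.5 WT and at 3.79, 3.39 and 3.71 in P0 KO, with a difference of 0.04 ± 0.15 (95% interval -0.27 to 0.36, adjusted p = 0.846). Of the markers of testis, Sox9 and Cldn11 were detected in both groups and neither was called, at 0.06 ± 0.15 and 0.15 ± 0.17. The Ddx4 levels of P0 KO and E17.5 WT overlapped.

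Elavl2 lay at 3.58, 3.6 and 3.36 in E17.5 WT, at 3.31, 2.94 and 3.24 in P0 KO and at 4.50, 4.59 and 4.48 in P0 WT. Every P0 KO array was below every array of both wild type groups. The gene was lower by -0.50 ± 0.13 against E17.5 WT (adjusted p = 0.0097) and by -1.36 against P0 WT (adjusted p = 9.08e-06). Within the shared slide the first difference was -0.35. A second probe gave -0.27 against E17.5 WT. With the deleted stretch unknown, a probe outside it checks nothing, and these values do not check the genotype label.

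The distance between 2 arrays was taken as the root mean square of their log2 differences over all genes tested. Over the 9 pairs of arrays, P0 KO lay at a median of 0.698 (range 0.637 to 0.80) from E17.5 WT and at 0.722 (0.630 to 0.784) from P0 WT, while the wild type stages lay at 0.817 (0.717 to 0.877) from each other. The P0 KO arrays were thus no nearer to one wild type stage than to the other beyond the spread of the pairs. They stood off from both by more than they stood off from one another, which was 0.431 to 0.440. P0 KO 1 lay at 0.674 from E17.5 WT and 0.763 from P0 WT, and P0 KO 2 at 0.651 and 0.724. P0 KO 3 gave 0.717 and 0.710, the opposite order, although it shared its slide with 2 of the E17.5 WT arrays. Without E17.5 WT 3 the median distance to E17.5 WT was 0.665, and the distance between the wild type stages 0.850. When only genes well above background on all 18 arrays were used, the order turned, with 0.559 to E17.5 WT and 0.535 to P0 WT. The E17.5 knockout arrays lay at a median of 0.739 from P0 KO (range 0.593 to 1.05). Of them, E17.5 KO 1 was nearer to each P0 KO array than any wild type array was, at 0.607, 0.593 and 0.627. E17.5 KO 3, scanned on another day than the P0 arrays, lay at 0.940 to 1.05. The E15.5 arrays lay farther away, at 1.00 (wild type) and 1.06 (knockout). All E15.5 arrays were also scanned on that other day, and the distances carry no scan day term, so stage and scan day cannot be told apart there. E17.5 WT 3 itself stood apart within its group, at 0.637 and 0.662 from the other E17.5 WT arrays, which were 0.362 apart.

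**Figure D1:**
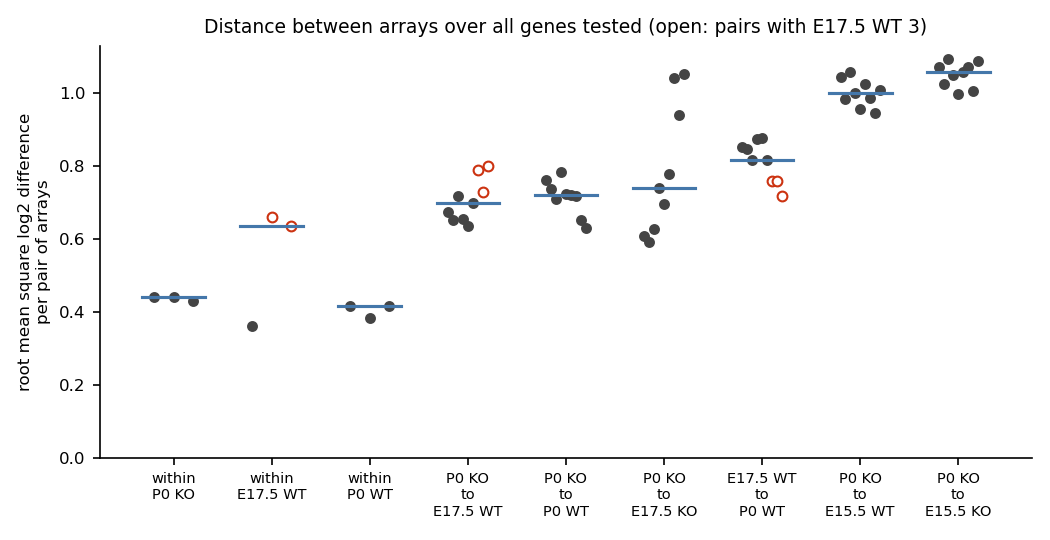
Distance between arrays, as the root mean square log2 difference over all 19294 genes tested, for each pair of arrays within a group and between groups; the line is the median and open points are pairs that hold E17.5 WT 3. The P0 KO arrays sit at a median of 0.698 from E17.5 WT and 0.722 from P0 WT, above their own spread of 0.431 to 0.440.

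Gene by gene, 6798 of 19294 genes were called between P0 KO and E17.5 WT (35.2%), 3543 of them higher in P0 KO (18.4%) and 3255 lower (16.9%). Most changes were small: 1187 genes were called and at least 2-fold apart (6.15%), 651 higher (3.37%) and 536 lower (2.78%), and for 13986 genes (72.5%) the 95% interval of the difference lay within 1 log2 unit of 0. Between P0 KO and P0 WT, which share the stage, 6648 genes were called (34.5%), 3534 higher (18.3%) and 3114 lower (16.1%) in P0 KO. Of these, 1216 were at least 2-fold apart (6.3%), 336 higher (1.74%) and 880 lower (4.56%), and the interval lay within 1 log2 unit for 14509 genes (75.2%). Between the wild type stages, 8350 genes were called (43.3%), 4266 higher (22.1%) and 4084 lower (21.2%) in the newborns. Of these, 2088 were at least 2-fold apart (10.8%), 1545 higher (8.01%) and 543 lower (2.81%), and 13330 genes (69.1%) had an interval within 1 log2 unit. The 3 P0 KO and 3 E17.5 WT arrays did not overlap in 8737 genes (45.3%). The 3 comparisons share arrays, so their counts are not independent of each other. Median differences over all genes were 0.04, -0.0009 and 0.01.

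Each gene was then asked whether P0 KO lay outside the range of both wild type stages, which required the larger p-value of both differences to pass. P0 KO was above both stages in 668 genes (3.46%) and below both in 337 (1.75%). It lay between them, called against each, in 3 genes (0.0155%). Both differences share the P0 KO arrays, so an error common to those arrays moves both the same way, toward above or below. P0 KO and P0 WT shared no slide, so genotype and slide cannot be told apart in the difference between them. When each difference was instead called on its own, the counts were 1447, 994 and 548. With only the E17.5 WT and P0 arrays in the fit, 207 genes were above and 39 below both stages, and with arrays scaled by their median 89 were below both. Single arrays also moved these counts by more than 1.5 times: 393 genes were above both without E17.5 WT 1, 365 without E17.5 WT 2, 418 without P0 KO 3, 445 without P0 WT 1 and 413 without P0 WT 2. Those below both were 216, 198 and 218 without E17.5 WT 1, E17.5 WT 2 and P0 WT 1.

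The genes described next fall into sets by where P0 KO lay, and the stretch of DNA just upstream of the start site is shown for a few genes of each set so that the sets can be compared. Oosp1, Tbpl2 and Rfpl4, oocyte genes, were lower in P0 KO than in P0 WT, and none of them was called against E17.5 WT; Oosp1 was below background in E17.5 WT and P0 KO, so those groups have no measured order for it. Meioc and Dmc1, genes of meiotic prophase, were not called against E17.5 WT and were above P0 WT. Stra8, the gatekeeper of meiotic entry, was above both stages. The 250 bases before the start site are from RefSeq, build GRCm38.p6, written 5′ to 3′ on the strand of the gene, for Oosp1 (chr19:11691052-11691301, minus strand), Tbpl2 (chr2:24096596-24096845, minus), Rfpl4 (chr7:5116912-5117161, minus), Meioc (chr11:102665335-102665584, plus), Dmc1 (chr15:79605110-79605359, minus) and Stra8 (chr6:34920698-34920947, plus). Capitals mark matches, on either strand, to the E-box CANNTG (its own reverse complement), the NOBOX element TAATTG, the STRA8 motif CNCCTCAG or the E2F-type motif GCGGGAA.
Oosp1: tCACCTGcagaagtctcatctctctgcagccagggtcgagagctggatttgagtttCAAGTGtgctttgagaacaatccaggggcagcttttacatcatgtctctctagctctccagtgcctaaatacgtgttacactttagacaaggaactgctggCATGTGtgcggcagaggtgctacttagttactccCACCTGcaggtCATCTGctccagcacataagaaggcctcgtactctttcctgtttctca
Tbpl2: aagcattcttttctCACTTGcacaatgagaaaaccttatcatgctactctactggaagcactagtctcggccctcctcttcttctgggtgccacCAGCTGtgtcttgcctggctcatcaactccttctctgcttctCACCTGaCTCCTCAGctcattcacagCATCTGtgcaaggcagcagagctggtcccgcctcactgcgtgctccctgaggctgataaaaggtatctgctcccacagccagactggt
Rfpl4: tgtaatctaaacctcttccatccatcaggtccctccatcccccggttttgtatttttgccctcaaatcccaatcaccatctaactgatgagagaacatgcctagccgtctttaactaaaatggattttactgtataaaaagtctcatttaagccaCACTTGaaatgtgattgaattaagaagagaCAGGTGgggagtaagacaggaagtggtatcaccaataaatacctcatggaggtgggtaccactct
Meioc: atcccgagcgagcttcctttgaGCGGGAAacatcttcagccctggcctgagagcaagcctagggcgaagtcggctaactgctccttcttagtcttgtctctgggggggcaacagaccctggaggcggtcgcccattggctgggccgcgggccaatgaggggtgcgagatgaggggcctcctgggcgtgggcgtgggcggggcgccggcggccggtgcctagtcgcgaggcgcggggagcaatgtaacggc
Dmc1: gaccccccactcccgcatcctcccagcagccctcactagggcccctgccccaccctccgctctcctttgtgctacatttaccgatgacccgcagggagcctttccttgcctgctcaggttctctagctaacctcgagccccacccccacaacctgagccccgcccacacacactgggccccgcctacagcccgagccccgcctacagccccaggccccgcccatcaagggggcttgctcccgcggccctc
Stra8: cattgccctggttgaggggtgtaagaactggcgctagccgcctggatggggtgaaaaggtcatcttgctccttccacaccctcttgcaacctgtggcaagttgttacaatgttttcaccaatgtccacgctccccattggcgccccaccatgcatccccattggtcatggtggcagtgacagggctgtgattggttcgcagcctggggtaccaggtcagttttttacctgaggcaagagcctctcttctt
The Oosp1 window held 5 E-boxes, the Tbpl2 window 4 and the Rfpl4 window 2, against 0 in each of the Meioc, Dmc1 and Stra8 windows. Of 32851 mouse promoter windows of this length, 66.2% held at least 1 E-box. Tbpl2 also had 1 match to CNCCTCAG (found in 6.42% of windows) and Meioc 1 to GCGGGAA (3.82%), whereas TAATTG (7.17%) was in none of the 6. No match shared bases with a match to another of these motifs. The matches describe these letters only, and a window without one says nothing of the factor.

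Genes of oocyte growth and the zona pellucida rose far less in P0 KO than between the wild type stages. Of 41 measured genes of this list, 35 were higher in P0 WT than in E17.5 WT (22.1% of all genes were), with a list median of 3.35 (median of all genes 0.01). In P0 KO, 12 rose above E17.5 WT (18.4% of all genes did), 0 fell and 29 were not called, and the list median was 0.47 against 0.04 for all genes. Against P0 WT, 31 of the 41 were lower (16.1% of all genes were), 0 were higher, and the median was -2.55. The summed level of the list ran from 6.81 to 7.40 in E17.5 WT, from 7.74 to 8.10 in P0 KO and from 8.69 to 8.89 in P0 WT, with no overlap between the groups. E17.5 WT 3 gave the 7.40. Without it the list median was 0.68 with 16 genes higher. Within the shared slide, where P0 KO 3 is the only knockout array, the median was 1.08. The number that rose depended on single arrays in the other direction too, being 4 without E17.5 WT 1, 3 without E17.5 WT 2 (where 2 genes fell), 6 without P0 KO 2 and 4 without P0 KO 3.

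Several of these genes were not called against E17.5 WT and lay below P0 WT. Gdf9, the growth factor that oocytes send to their granulosa cells, was at 1.06, 0.82 and 1.81 in E17.5 WT, at 1.20, 1.23 and 1.56 in P0 KO and at 4.61, 4.71 and 4.57 in P0 WT. The P0 KO arrays lay far below every P0 WT array and inside the E17.5 WT range, whose upper end was E17.5 WT 3; every P0 KO array was above the other E17.5 WT arrays. The differences were 0.12 ± 0.29 (interval -0.49 to 0.74, adjusted p = 0.771) and -3.30 ± 0.27 (adjusted p = 4.5e-06). Against E17.5 WT the difference was 0.39 without E17.5 WT 3, not called, and 0.62 within the shared slide. Npm2, the egg's histone chaperone nucleoplasmin, lay at -1.22, -1.81 and -0.59 in E17.5 WT, at -2.13, -1.82 and -1.31 in P0 KO and at 3.21, 3.46 and 3.18 in P0 WT. It was lower than in P0 WT by -5.04 ± 0.22 (adjusted p = 8.67e-08), beside -0.38 (interval -0.89 to 0.13) against E17.5 WT, which became -0.69 without E17.5 WT 2 and -0.60 without P0 KO 3. Against E17.5 WT it was called lower in 1 of the fits that left out a single array of these groups. Oosp1, an oocyte-secreted protein whose promoter is printed above, was not well above background on any E17.5 WT or P0 KO array and was well above it on every P0 WT array, being at least 9.06-fold lower in P0 KO than in P0 WT (adjusted p = 1.22e-08). Such a bound sets the brighter group's mean against, per array of the dimmer group, the higher of the gene's own signal and the lowest signal that was well above background.

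Tbpl2 encodes the TATA-binding protein paralogue that replaces TBP in oocytes, and its levels were -4.75, -4.86 and -4.01 in E17.5 WT, -5.45, -4.75 and -4.30 in P0 KO and -1.0, -0.77 and -1.11 in P0 WT. The E17.5 WT and P0 KO arrays overlapped, while the P0 WT arrays stood clear of both, the deficit against P0 WT being -3.87 ± 0.39 (adjusted p = 2.07e-05). Gja4 (a connexin of the oocyte's gap junctions) was at 1.5, 1.71 and 2.19 in E17.5 WT, 1.75, 1.61 and 1.89 in P0 KO and 3.42, 3.17 and 3.06 in P0 WT. Its difference from E17.5 WT was 0.06 (interval -0.23 to 0.35) and from P0 WT -1.47 ± 0.13 (adjusted p = 5.82e-06). Rfpl4, an oocyte RING finger gene, Zbed3, a maternal-effect zinc finger gene, and Padi6, which encodes a protein of the egg's cytoplasmic lattices, gave 0.09, -0.08 and 0.17 against E17.5 WT and -2.90, -1.42 and -4.44 against P0 WT. Tbpl2 was well above background on 2 of the 3 P0 KO arrays and Rfpl4 on 1. The interval of Padi6, -1.08 to 1.41, was too wide to place it within 1 log2 unit of E17.5 WT. In all, 12 of the 41 genes had an interval within that bound, a smaller part than the 72.5% of all genes.

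Outside that list, the rule that ranked genes by their deficit against P0 WT, among those with an interval within 1 log2 unit of E17.5 WT, also took Aspg (an asparaginase gene), Miox (myo-inositol oxygenase) and Tsga10ip. It took Bco1, a carotenoid-cleaving enzyme gene, as well, which was not well above background on any E17.5 WT or P0 KO array and was at least 5.69-fold lower in P0 KO than in P0 WT. Aspg lay at -2.92, -3.39 and -2.23 in E17.5 WT, at -3.63, -3.40 and -3.18 in P0 KO and at 0.95, 1.34 and 1.13 in P0 WT, a deficit of -4.55 ± 0.21 (adjusted p = 1.01e-07) against the newborn wild type. Against E17.5 WT it gave -0.43 ± 0.22, -0.72 without E17.5 WT 2 and -0.54 without P0 KO 3, and a second probe gave 0.50. Aspg was called lower than E17.5 WT in 1 of the fits that left out a single array of these groups. Miox gave a fitted 0.25 against E17.5 WT, although its group mean was lower in P0 KO (-3.57) than in E17.5 WT (-3.31). Against P0 WT it gave -3.90. Tsga10ip gave 0.08 and -4.07. Pou5f1 (OCT4), which growing oocytes express again after meiotic entry, gave -0.30 ± 0.46 and -3.73 ± 0.44 (adjusted p = 6.11e-05 against P0 WT), and Pik3cd, a PI3-kinase subunit gene, -0.35 (0.29 by a second probe) and -2.06. Among signalling genes, the Notch ligand gene Jag1 lay at -0.01, -0.17 and -0.13 in E17.5 WT, at 0.72, 0.07 and 0.27 in P0 KO and at 1.90, 1.97 and 1.95 in P0 WT. It was not called against E17.5 WT (0.31 ± 0.18, adjusted p = 0.208; called without E17.5 WT 3, 0.45, adjusted p = 0.0458) and was lower than in P0 WT by -1.59 (adjusted p = 3.77e-05). The Notch target gene Hey2 gave 0.16 and -1.32. Pou5f1, Pik3cd, Jag1 and Hey2 were chosen after their values were seen.

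Other genes of the oocyte list were called both above E17.5 WT and below P0 WT, each difference on its own, but not by the joint test of lying between the stages. Tle6, of the subcortical maternal complex, lay at 4.14, 4.0 and 4.46 in E17.5 WT, at 4.96, 4.99 and 5.22 in P0 KO and at 5.88, 6.13 and 5.85 in P0 WT. The 3 groups did not overlap, and P0 KO was higher than E17.5 WT by 0.88 ± 0.14 (adjusted p = 0.000425) and lower than P0 WT by -0.90 ± 0.13 (adjusted p = 0.000263), with an adjusted p of 0.0633 for both together. Ooep, of the same complex, was at -0.44, -0.32 and 0.68, then 1.47, 1.34 and 2.19, then 3.94, 3.89 and 3.58 in E17.5 WT, P0 KO and P0 WT, which gave 1.76 ± 0.48 (adjusted p = 0.0133) and -2.14 ± 0.46 (adjusted p = 0.00338). Nlrp5 (MATER) rose by 1.66 and Khdc3 by 1.54, both members of that complex too, and both lay below P0 WT, by -1.69 and -3.71. The adjusted p for both differences together was 0.313 for Ooep, 0.421 for Nlrp5 and 0.556 for Khdc3. The calls of the last 3 against E17.5 WT rest on single arrays. Ooep was not called without E17.5 WT 1 (1.51), E17.5 WT 2 (1.60) or P0 KO 3 (1.5), and Nlrp5 was not without E17.5 WT 1 (1.16), E17.5 WT 2 (1.64) or P0 KO 2 (1.34). Khdc3 was called without E17.5 WT 3 or P0 KO 1 but not without E17.5 WT 1 (1.5), E17.5 WT 2 (1.01), P0 KO 2 (1.63) or P0 KO 3 (1.22).

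The zona pellucida genes behaved unequally. Zp2 lay at -2.95, -3.43 and -1.42 in E17.5 WT, at -0.73, -0.78 and -0.14 in P0 KO and at 1.67, 1.70 and 1.39 in P0 WT, so that no groups overlapped, and it rose by 2.09 ± 0.62 over E17.5 WT (adjusted p = 0.0187). It was not called without E17.5 WT 1 (1.86), E17.5 WT 2 (1.52) or P0 KO 3 (1.88). Zp1 rose by 1.45 ± 0.41 (adjusted p = 0.0164), a call lost without E17.5 WT 2 (1.39) or P0 KO 3 (1.21). Zp3 lay at -2.80, -4.01 and -1.13 in E17.5 WT and at -2.93, -2.37 and -1.83 in P0 KO, which overlapped, and at 2.99, 3.04 and 2.79 in P0 WT. Its difference from E17.5 WT, 0.68 ± 0.44, was not called (adjusted p = 0.261), but without E17.5 WT 3, the highest array, it was 1.02 with an adjusted p of 0.0469. Zar1 (1.01 ± 0.38, adjusted p = 0.0573) and Nlrp14 (1.55 ± 0.71, adjusted p = 0.112) were likewise called when that array was left out, at 1.28 and 2.13, and in no other fit that left out a single array of these groups. In these genes E17.5 WT 3 was the highest of its group, and whether its scan day or slide had a part in that was not tested. Khdc1a, not well above background in any E17.5 WT array, was so in 1 P0 KO array and in all 3 P0 WT arrays.

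At the far end, Uchl1, a deubiquitinase abundant in oocytes, rose over E17.5 WT and was not called against P0 WT. It was at 5.30, 5.33 and 5.94 in E17.5 WT, at 6.64, 6.39 and 6.69 in P0 KO and at 6.38, 6.49 and 6.48 in P0 WT, a rise of 1.07 ± 0.30 (adjusted p = 0.0151) beside 0.13 ± 0.28 (interval -0.49 to 0.74, adjusted p = 0.755) against P0 WT. The rise was 0.92 without E17.5 WT 1 and 0.94 without E17.5 WT 2, neither of them called. Dppa3 (Stella), a maternal factor that protects the egg's genome from demethylation, rose by 1.19 ± 0.43 (adjusted p = 0.0478) and gave -0.38 against P0 WT, and of the fits that left out 1 array it was called only without E17.5 WT 3 (1.42). Without E17.5 WT 1, E17.5 WT 2 or P0 KO 1, 2 or 3 it gave 1.00, 1.05, 1.16, 1.33 and 1.09. The transcription factors that start the oocyte program were not called in either direction: Nobox gave 0.40 ± 0.40 against E17.5 WT and -0.46 ± 0.37 against P0 WT, Figla 0.23 ± 0.22 and -0.05 ± 0.20, and Lhx8 0.41 ± 0.41 and -0.19 ± 0.39. Figla, for example, lay at 3.75, 3.75 and 3.64 in E17.5 WT, at 4.41, 3.79 and 3.99 in P0 KO and at 4.01, 4.14 and 4.18 in P0 WT. A missed threshold does not show that these 3 genes had equal levels, and the intervals against E17.5 WT reached 1.25 for Nobox, 0.70 for Figla and 1.30 for Lhx8.

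**Figure D2:**
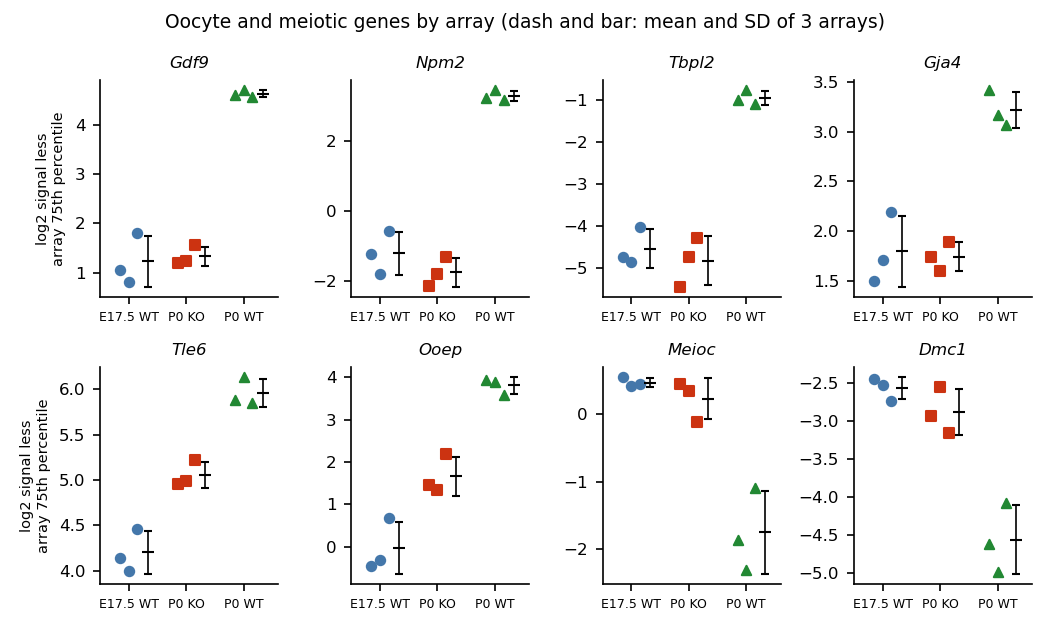
Level of 8 oocyte and meiotic genes on each array (log2 signal less the array's 75th percentile) in E17.5 WT, P0 KO and P0 WT, 3 arrays each, with mean and SD. In P0 KO, Gdf9, Npm2, Tbpl2 and Gja4 overlap E17.5 WT and lie below P0 WT, the arrays of Tle6 and Ooep lie between those of the wild type groups (not called by the joint test), and Meioc and Dmc1 overlap E17.5 WT and lie above P0 WT.

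Genes of meiotic entry and prophase were called both ways against E17.5 WT and were more often higher than lower against P0 WT. Of 35 measured, 22 were lower in P0 WT than in E17.5 WT (21.2% of all genes were), with a median of -0.51. In P0 KO, 13 were lower than in E17.5 WT (16.9% of all genes were), 6 were higher (18.4%) and 16 were not called, with a median of -0.20. The interval lay within 1 log2 unit of E17.5 WT for 26 of the 35, beside 72.5% of all genes. Against P0 WT 18 were higher (18.3% of all genes were) and 2 lower, with a median of 0.33. The summed level ran from 7.34 to 7.37 in E17.5 WT, from 7.41 to 7.68 in P0 KO and from 7.01 to 7.18 in P0 WT. This sum, in which bright members weigh most, was thus highest in P0 KO, although more members were lower than higher against E17.5 WT. The number lower than in E17.5 WT was 4 without E17.5 WT 2, 8 without E17.5 WT 3 and 5 without P0 KO 3. Within the shared slide the list median was -0.31.

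Meioc, which keeps germ cells in meiotic prophase, lay at 0.55, 0.41 and 0.44 in E17.5 WT, at 0.45, 0.35 and -0.11 in P0 KO and at -1.87, -2.31 and -1.09 in P0 WT. The E17.5 WT and P0 KO arrays overlapped and both stood clear of P0 WT, with differences of -0.20 (interval -0.78 to 0.37, adjusted p = 0.587) and 1.98 ± 0.25 (adjusted p = 9.91e-05). Dmc1, the recombinase that pairs homologous DNA strands in meiosis, was at -2.45, -2.54 and -2.74 in E17.5 WT, at -2.94, -2.56 and -3.16 in P0 KO and at -4.61, -4.98 and -4.08 in P0 WT. It gave -0.34 ± 0.22 (adjusted p = 0.247) and 1.67 ± 0.20 (adjusted p = 7.94e-05). Of the genes of the synaptonemal complex and chromosome axis, Sycp2 gave 0.13 ± 0.15 against E17.5 WT and 1.10 ± 0.14 (adjusted p = 9.91e-05) against P0 WT, Hormad1 -0.31 and 0.68, and the meiotic cohesin gene Smc1b 0.38 and 1.00. Smc1b was called higher than E17.5 WT without E17.5 WT 3 (0.45). Tex12 had an interval of -0.26 to 0.25 against E17.5 WT and was 0.78 above P0 WT. Other probes of Sycp2 gave -0.36 to -0.29 against E17.5 WT, and another of Hormad1 -0.83. Adad1, an RNA-binding protein gene of germ cells, was not called against E17.5 WT (-0.25 ± 0.17, interval -0.62 to 0.11) and lay above P0 WT (1.72, adjusted p = 1.12e-05). It was called lower than E17.5 WT in 1 of the fits that left out a single array of these groups. The same rule took Ankrd34b (0.33 and 2.64), Lypd4 (0.33 and 1.67) and Nrip3, which was called above both stages (0.44 and 1.75). It also took Wnt3, a WNT ligand gene that was not well above background on any P0 WT array. Wnt3 lay at -4.34, -4.11 and -4.47 in E17.5 WT and at -4.30, -4.02 and -4.42 in P0 KO, which overlapped, and was at least 2.52-fold higher in P0 KO than in P0 WT, with a second probe at 0.88 against E17.5 WT.

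Other prophase genes were lower in P0 KO than in E17.5 WT. Msh4, of the crossover complex MSH4-MSH5, lay at -1.02, -0.96 and -1.12 in E17.5 WT, at -2.27, -2.45 and -2.50 in P0 KO and at -2.38, -2.58 and -2.48 in P0 WT. P0 KO was clear of E17.5 WT and overlapped P0 WT, with differences of -1.40 ± 0.09 (adjusted p = 1.5e-06) and 0.07 ± 0.09 (adjusted p = 0.542). Spo11, whose product makes the DNA breaks that begin recombination, fell by -1.38 ± 0.15 (adjusted p = 3.98e-05) and was 0.44 ± 0.14 above P0 WT (adjusted p = 0.0301). Msh5 gave -0.96 ± 0.17 against E17.5 WT and -0.56 ± 0.16 against P0 WT, each called on its own but not called below both together (adjusted p = 0.144), and its other probes gave -1.02 to -0.27 against E17.5 WT. In the opposite sense, Dpep3, a dipeptidase gene of germ cells, rose from -4.65, -3.98 and -3.29 to -2.37, -1.88 and -2.15, by 2.06 ± 0.24 (adjusted p = 5.38e-05), and gave 0.05 ± 0.23 against P0 WT (interval -0.44 to 0.54).

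**Figure D3:**
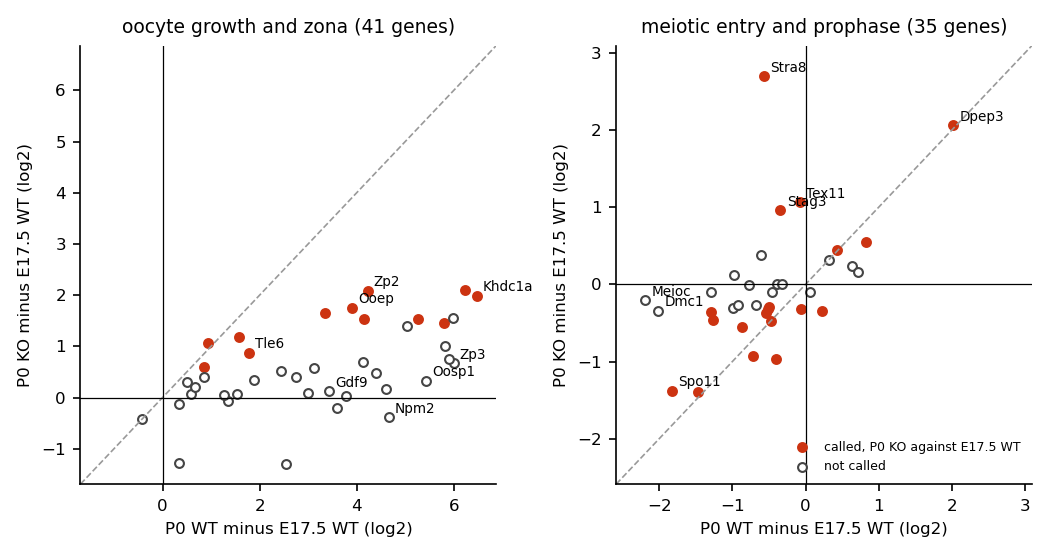
Difference of P0 KO from E17.5 WT (vertical) against the difference of P0 WT from E17.5 WT (horizontal), both in log2, for the 41 oocyte growth genes and the 35 meiosis genes; filled points were called on the vertical axis, and both axes share the E17.5 WT arrays. Points on the dashed line changed as in wild type and points on the horizontal line did not differ in P0 KO; most oocyte genes lie below the dashed line, and Stra8, Stag3 and Tex11 lie above both lines.

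Stra8 was the largest departure among meiosis genes. Its levels were -2.46, -3.67 and -3.61 in E17.5 WT, -1.41, -0.35 and -0.24 in P0 KO and -4.28, -3.71 and -3.80 in P0 WT. All P0 KO arrays lay above all 6 wild type arrays, by 2.69 ± 0.45 (adjusted p = 0.000679) and 3.26 ± 0.43 (adjusted p = 0.000132), and the gene was called above both stages (adjusted p = 0.00537). The meiotic cohesin gene Stag3 lay at 2.10, 2.04 and 2.27 in E17.5 WT, at 3.11, 3.01 and 3.13 in P0 KO and at 1.84, 1.60 and 1.90 in P0 WT, and was above both (0.96 ± 0.13 and 1.30 ± 0.12, adjusted p = 0.0013 for both together). Tex11, an X-linked crossover gene, was the third of the 35 to be called above both, at 1.07 and 1.14. No motif searched was in the Stra8 window printed above.

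Germ cell genes that are not tied to one step of meiosis were mixed. Of 25 measured, 10 rose over E17.5 WT (18.4% of all genes did), 3 fell (16.9%) and 12 were not called (median 0.27), and 5 were above both stages (3.46%). The RNA-binding protein gene Dazl, a licensing factor of germ cell development, was at 3.51, 3.48 and 3.50 in E17.5 WT, at 4.49, 4.31 and 4.27 in P0 KO and at 3.61, 3.27 and 3.61 in P0 WT. P0 KO did not overlap either group, at 0.79 ± 0.14 and 0.86 ± 0.13 (adjusted p = 0.00662 for both together), and a second probe gave 0.53 against E17.5 WT. Fkbp6 (1.00 and 0.80), Tex19.1 (0.65 and 1.06) and Tex101 (0.63 and 1.48), known as germ cell genes, were also above both, as was Tex13b (1.29 and 1.42). The receptor gene Kit rose by 0.88 ± 0.28 (adjusted p = 0.0268) and was not called against P0 WT (-0.42 ± 0.26). Its rise was not called without E17.5 WT 1 (0.76), E17.5 WT 2 (0.78), P0 KO 1 (0.86) or P0 KO 3 (0.77).

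The single member below both stages was Piwil4, a PIWI protein gene of the piRNA pathway. It lay at -1.01, -1.78 and -1.12 in E17.5 WT, at -2.92, -3.11 and -2.94 in P0 KO and at -1.06, -0.90 and -1.48 in P0 WT. The P0 KO arrays were tight and far below the others, by -1.91 ± 0.32 and -1.84 ± 0.30 (adjusted p = 0.0073 for both together).

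Of genes whose expression is largely confined to the germ line or the early embryo, 16 were measured, and 5 of them were called above both wild type stages (3.46% of all genes were). Against E17.5 WT 7 rose (18.4% of all genes did), 0 fell and 9 were not called (median 0.68), with 1 lower without P0 KO 3, and against P0 WT 12 were higher (18.3%) and 1 lower (median 1.17). The summed level was 4.94 to 5.08 in E17.5 WT, 6.15 to 6.41 in P0 KO and 5.03 to 5.28 in P0 WT, so P0 KO stood clear of both groups, which overlapped each other. The X-linked homeobox gene Esx1 was at -2.02, -2.01 and -1.68 in E17.5 WT, at 0.30, 0.24 and -0.34 in P0 KO and at -3.04, -3.28 and -2.56 in P0 WT. It was above E17.5 WT by 1.95 ± 0.23 and above P0 WT by 3.03 ± 0.22 (adjusted p = 0.00075 for both together). Tsga8, a testis-specific gene, lay at -3.57, -2.83 and -2.14, then 0.73, 0.77 and 1.32, then -1.57, -1.36 and -0.92 in the same order of groups, with differences of 3.79 ± 0.46 and 2.23 ± 0.44. Xlr5a (1.62 and 1.15) and Mageb4 (1.25 and 1.21), X-linked multicopy genes of the germ line, were above both as well. Usp17lb was called above both but was not well above background on any of the 9 arrays, so its levels are only a bound. Members of the Xlr and Usp17 families are near copies, and a probe may read more than one of them. Among the 12 above P0 WT were homeobox genes of the Rhox cluster: Rhox5 gave 0.59 and Rhox6 0.39 against E17.5 WT, neither of them called, and 1.05 and 1.26 against P0 WT.

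The genes with the largest smaller difference above both stages came from several families. Dlx1, a homeobox transcription factor gene, was at -4.46, -4.17 and -4.03 in E17.5 WT, at -0.34, -0.56 and -0.58 in P0 KO and at -2.94, -2.94 and -2.80 in P0 WT. The groups did not overlap, and P0 KO was higher by 3.62 ± 0.28 (adjusted p = 4.34e-06) and 2.41 ± 0.27 (adjusted p = 4.42e-05). Slc22a13, an organic anion transporter gene, lay at -3.83, -3.43 and -2.39 in E17.5 WT, at 0.09, -0.07 and 0.60 in P0 KO and at -2.79, -2.48 and -2.65 in P0 WT (3.49 ± 0.54 and 2.85 ± 0.51). Gpr174, a G protein-coupled receptor gene, was well above background on every P0 KO array and on none of the 6 wild type arrays, at least 5.72-fold higher than E17.5 WT and at least 4.46-fold higher than P0 WT. Ctag2 was likewise well above background in P0 KO alone, at least 2.64-fold and at least 2.20-fold higher. Lin28b, a blocker of let-7 microRNA maturation, gave 1.24 and 1.34 and was above both (adjusted p = 0.0184), whereas its paralogue Lin28a rose by 3.19 ± 0.51 and was not called against P0 WT (-0.06 ± 0.48, interval -1.10 to 0.98).

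Among 31 genes of p53 signalling and apoptosis, 6 rose (18.4% of all genes did), 4 fell (16.9%) and 21 were not called (median 0.13), and 2 fell without E17.5 WT 2, E17.5 WT 3 or P0 KO 3. Those shares are close to those of all genes. Pmaip1 (NOXA), a BH3-only activator of apoptosis, was the 1 gene of the list above both stages and lay at -0.22, -0.65 and -0.88 in E17.5 WT, at 1.13, 0.66 and 1.01 in P0 KO and at -0.53, -0.51 and -0.55 in P0 WT. Its differences were 1.42 ± 0.14 and 1.46 ± 0.14 (adjusted p = 0.000295 for both together). Bbc3 (PUMA) rose by 0.84 ± 0.19 (adjusted p = 0.00464) and was not called against P0 WT (0.10 ± 0.18, interval -0.29 to 0.48). Of the genes that fell, Apaf1, the scaffold of the apoptosome, gave -1.05 (other probes -1.05 to 0.94) and the cell cycle inhibitor gene Cdkn1a -0.73. Trp63, the p53 relative that guards the oocyte's genome, was at 0.85, 0.91 and 1.34 in E17.5 WT, at 2.32, 1.97 and 2.53 in P0 KO and at 3.23, 3.38 and 3.15 in P0 WT. It rose by 1.12 ± 0.40 (adjusted p = 0.0446), which was lost without E17.5 WT 1 (0.90), E17.5 WT 2 (0.94), P0 KO 1 (1.09) or P0 KO 3 (0.98), and was not called against P0 WT (-0.98 ± 0.38, adjusted p = 0.059). Perp, a p53 target, rose by 0.87 (0.70 and not called without E17.5 WT 1) and lay -0.71 from P0 WT. Bax (-0.01 ± 0.08) and Trp53 (0.20) were not called.

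**Figure D4:**
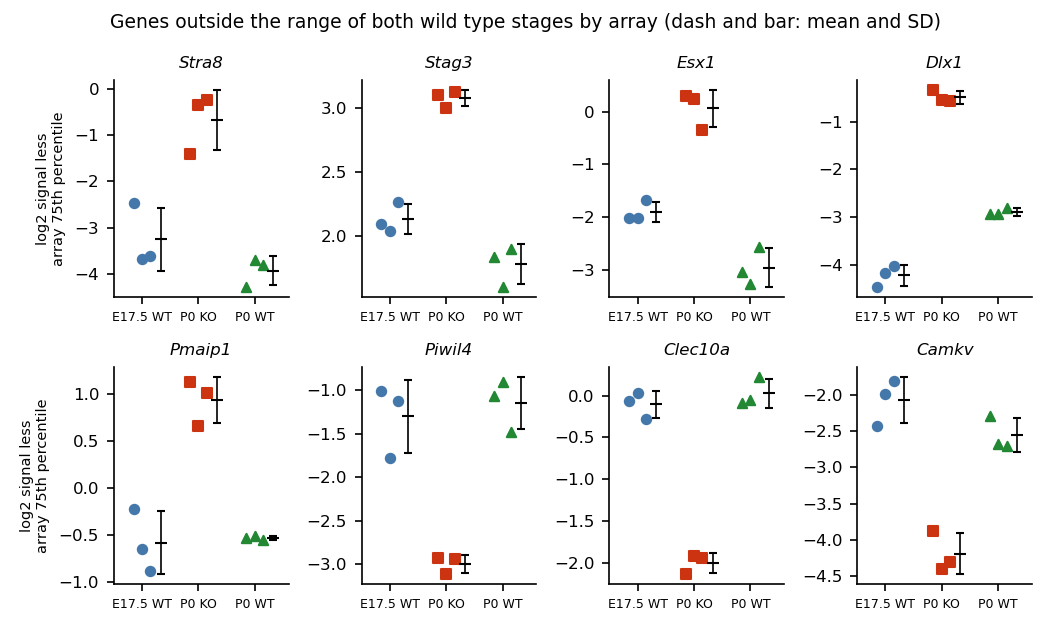
Level of 8 genes on each array (log2 signal less the array's 75th percentile) in E17.5 WT, P0 KO and P0 WT, 3 arrays each, with mean and SD. Stra8, Stag3, Esx1, Dlx1 and Pmaip1 lie above every wild type array in P0 KO, and Piwil4, Clec10a and Camkv lie below every one.

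Below both stages, the genes with the largest smaller difference included a pair of macrophage lectins. Clec10a lay at -0.06, 0.03 and -0.28 in E17.5 WT, at -2.13, -1.91 and -1.94 in P0 KO and at -0.09, -0.06 and 0.22 in P0 WT. The wild type groups overlapped and P0 KO lay below them, by -1.92 ± 0.19 (adjusted p = 2.28e-05) and -2.02 ± 0.18 (adjusted p = 9.19e-06). Its neighbouring paralogue Mgl2 gave -1.54 ± 0.28 and -1.88 ± 0.27, and since both genes are alike a probe may read both. Of 23 measured genes of the macrophage and leukocyte list, which does not hold this pair, 2 rose (18.4% of all genes did) and 0 fell (16.9%) against E17.5 WT (median 0.15), and the summed level ran from 5.81 to 6.69 in E17.5 WT, from 4.99 to 6.04 in P0 KO and from 3.73 to 6.75 in P0 WT. Those that rose were Cd14 (0.73, not called without E17.5 WT 2, 0.63) and the scavenger receptor gene Cd163 (0.89, not called without E17.5 WT 1, 0.84, E17.5 WT 2, 0.96, or P0 KO 3, 0.69). The defining genes Csf1r and Ptprc gave -0.17 and -0.34 and were not called, and Adgre1 gave -0.37 ± 0.15, called only without P0 KO 1 (-0.50). Camkv, a kinase-like protein gene of neurons, lay at -2.43, -1.98 and -1.81 in E17.5 WT, at -3.87, -4.40 and -4.30 in P0 KO and at -2.29, -2.68 and -2.71 in P0 WT (-1.96 ± 0.21 and -1.63 ± 0.20), with a second probe at -0.59. Elf3, an epithelial ETS factor gene, was not well above background in P0 KO and was at least 1.99-fold lower than in E17.5 WT and at least 3.26-fold lower than in P0 WT. Tsc1, an inhibitor of mTOR that helps to keep primordial follicles dormant, gave -0.88 ± 0.15 and -1.20 ± 0.14, but 3 other probes ranged from -0.96 to 0.45 against E17.5 WT.

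Only 3 genes were called between the stages by limma, and 1013 had an unadjusted p under 0.05 there. Ptges, a prostaglandin E synthase gene, lay at -2.27, -2.34 and -2.04 in E17.5 WT, at -1.66, -1.47 and -1.55 in P0 KO and at -0.01, 0.07 and -0.20 in P0 WT, so that the 3 groups were apart (0.73 ± 0.08 and -1.51 ± 0.08). None was called without E17.5 WT 1, E17.5 WT 2 or P0 KO 3, where 840, 743 and 793 genes had an unadjusted p under 0.05, and without E17.5 WT 3 there were 13. Adra2c, an adrenergic receptor gene, gave 1.80 ± 0.21 and -1.5 ± 0.20. Fgf21, a metabolic hormone gene, was well above background in P0 WT alone, at least 2.64-fold higher there than in P0 KO, so its order among E17.5 WT and P0 KO is not measured. All 3 genes were chosen after their values were seen.

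Many of the largest differences between P0 KO and E17.5 WT were differences that P0 WT showed too. Dcpp1, a secreted protein gene of the Dcpp family, was at -2.35, -3.07 and -0.94 in E17.5 WT, at 1.54, 1.58 and 2.39 in P0 KO and at 1.46, 1.52 and 1.53 in P0 WT. It rose by 3.95 ± 0.74 (adjusted p = 0.00131) and was not called against P0 WT (0.33 ± 0.69, interval -1.17 to 1.83), although each P0 KO array was above every P0 WT array. Dcpp2 rose by 4.02 and gave 0.49 against P0 WT (interval -1.16 to 2.15), not called. Dcpp3 (5.0 ± 0.74, the largest rise) lay 1.72 ± 0.70 above P0 WT, which was not called (adjusted p = 0.0721). The 3 genes are near copies, and a probe may read more than one. Gfod1, an oxidoreductase-like gene, lay at -4.67, -5.42 and -4.81 in E17.5 WT, at -0.84, -1.40 and -1.39 in P0 KO and at -1.67, -1.78 and -2.14 in P0 WT, a rise of 3.90 ± 0.29 (adjusted p = 2.94e-06), with a second probe at 1.52. Satl1 (4.77), Zpld1 (4.47), Hpdl (3.31) and Hsd3b2 (3.13) also rose and were not called against P0 WT, although a second Hsd3b2 probe gave -0.07.

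Of the largest falls, the muscle regulator gene Myog was at least 5.10-fold lower in P0 KO than in E17.5 WT and Hba-x, the embryonic alpha-type globin gene, at least 1.53-fold, both of them not well above background on any P0 KO array. Myog and Hba-x were below background in P0 WT too. Ccdc151, a gene of motile cilia, lay at -1.72, -1.64 and -1.57 in E17.5 WT, at -3.86, -4.46 and -4.95 in P0 KO and at -3.69, -4.66 and -3.83 in P0 WT, a fall of -2.69 ± 0.30 (adjusted p = 4.52e-05). Of 16 measured red cell genes 4 fell (Hba-x, Hba-a1, Hbb-bh1 and Alas2; 16.9% of all genes fell), 0 rose and 12 were not called, with a median of -1.83. Their summed level was 7.09 to 7.73 in E17.5 WT, 6.02 to 6.21 in P0 KO and 5.53 to 7.20 in P0 WT, where P0 WT 2 was the high array. Alas2, the heme synthesis enzyme of red cells, was called at -2.0 ± 0.70, but not without E17.5 WT 1 (-1.52), E17.5 WT 2 (-1.94) or P0 KO 1, 2 or 3 (-2.01, -1.98 and -2.0). Hbb-bh1 lost its call without E17.5 WT 1 (-2.02), E17.5 WT 2 (-1.53), P0 KO 1 (-2.09) or P0 KO 3 (-1.87), and Hba-a1 without E17.5 WT 1 (-0.90), E17.5 WT 2 (-1.09) or P0 KO 3 (-1.07), whereas Hba-x kept it without each of the 6 arrays. Without E17.5 WT 3, 7 of the 16 genes fell and the list median was -2.59, while 1 fell without E17.5 WT 1, E17.5 WT 2 or P0 KO 3 and 2 without P0 KO 1. The distances between arrays were nearly the same without these genes, at 0.696 to E17.5 WT and 0.718 to P0 WT.

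Genes of glycolysis and the response to low oxygen were mostly lower: of 24 measured, 14 fell (16.9% of all genes did; 10 to 15 with 1 array left out), 1 rose (0 without E17.5 WT 1 or any 1 P0 KO array) and 9 were not called, with a median of -0.48, beside -0.61 between the wild type stages and 0.04 between P0 KO and P0 WT. Hk2 (hexokinase 2) lay at 1.34, 2.01 and 1.29 in E17.5 WT, at 0.37, -0.23 and -0.41 in P0 KO and at 0.51, -0.26 and -0.46 in P0 WT. It fell by -1.77 ± 0.27 (adjusted p = 0.000352) with no overlap between P0 KO and E17.5 WT, and gave -0.02 ± 0.25 against P0 WT. The glucose transporter gene Slc2a1 fell by -0.97, Vegfa by -0.80 and the lactate dehydrogenase gene Ldha by -0.56. Ldha stayed 0.51 ± 0.17 above P0 WT (adjusted p = 0.0358), and its fall was not called without E17.5 WT 2 (-0.34), P0 KO 2 (-0.51) or P0 KO 3 (-0.49).

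Of 21 measured immediate early genes, which cells induce within minutes of a stimulus, 13 rose (18.4% of all genes did) and 0 fell, with a median of 0.84. Egr1 was at 0.51, 0.94 and 0.58 in E17.5 WT, at 2.83, 2.39 and 2.21 in P0 KO and at 2.35, 1.83 and 1.42 in P0 WT, higher by 1.74 ± 0.23 (adjusted p = 0.000142) and, against P0 WT, by 0.61 ± 0.22 (adjusted p = 0.046). Each was called on its own, but Egr1 was not called above both together (adjusted p = 0.215). Fos varied between the P0 KO arrays, at 0.54, -0.58 and -3.1, against -4.26, -4.06 and -4.30 in E17.5 WT and -0.99, -1.18 and -3.56 in P0 WT. Its rise of 3.1 ± 0.81 was 1.06 within the shared slide, where the only knockout array is P0 KO 3, the lowest of the 3. The summed level of the list was 7.45, 7.17 and 6.93 in P0 KO 1, 2 and 3 against 6.75 to 6.83 in E17.5 WT. Within the shared slide, which holds P0 KO 3 alone of the knockout arrays, the median was 0.45. Atf3, a stress-induced transcription factor gene, was above both stages (1.85 and 1.28).

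Of 10 measured steroidogenic genes, 7 rose (18.4% of all genes did), 0 fell and 3 were not called, with medians of 0.71 against E17.5 WT and -0.10 against P0 WT. Between the wild type stages 4 of the 10 were higher in P0 WT (22.1% of all genes were), with a median of 0.75. Akr1cl, an aldo-keto reductase gene, was at 1.59, 1.5 and 1.42 in E17.5 WT, at 2.73, 2.88 and 3.01 in P0 KO and at 2.64, 2.88 and 2.83 in P0 WT, a rise of 1.28 ± 0.11 (adjusted p = 9.14e-06), though its other probes gave 0.29 to 1.00. Star, which carries cholesterol into mitochondria, rose by 1.09 ± 0.39 (adjusted p = 0.0435), a call that held without P0 KO 3 but not without any other array of the groups (0.94, 1.18 and 1.12 without E17.5 WT 1, 2 and 3, and 0.96 and 1.04 without P0 KO 1 and 2). In the list, 4 genes rose without E17.5 WT 3 or P0 KO 3, and 2 without E17.5 WT 1, E17.5 WT 2 or P0 KO 2. Under another background correction with quantile normalization the list median was 0.36.

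Of 31 measured genes of pregranulosa and granulosa cells, 5 rose (18.4% of all genes did), 4 fell (16.9%) and 22 were not called (median 0.22), and 25 had an interval within 1 log2 unit of 0, beside 72.5% of all genes. Without E17.5 WT 2 or P0 KO 1, 3 rose. Against P0 WT, 12 of the 31 were higher (18.3% of all genes were) and 5 lower (16.1%). Cyp19a1 (aromatase) lay at -3.54, -3.49 and -3.15 in E17.5 WT, at -1.88, -1.69 and -1.44 in P0 KO and at -2.07, -2.55 and -1.64 in P0 WT. It rose by 1.73 ± 0.22 (adjusted p = 9e-05) and was not called against P0 WT (0.42 ± 0.20, adjusted p = 0.131). Inha, the inhibin alpha gene, rose by 0.74 ± 0.12 and lay -0.46 ± 0.11 below P0 WT. The activin subunit gene Inhba (-1.25 ± 0.16), the ligand gene Bmp2 (-1.26 ± 0.17), the R-spondin receptor gene Lgr5 (-0.85 ± 0.13) and the KIT ligand gene Kitl (-0.52 ± 0.13) fell. Kitl and Bmp2 stayed 0.48 above P0 WT each, and the fall of Kitl was not called without E17.5 WT 2 (-0.46).

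Signalling pathways of the ovary gave mixed counts, to be read beside the 18.4% of all genes that rose and the 16.9% that fell. Of 24 WNT genes 3 rose and 7 fell (median -0.15), of 27 BMP, activin and TGF-beta genes 3 rose and 4 fell (0.02), of 18 Notch genes 4 rose and 3 fell (0.12), of 9 hedgehog genes 1 rose and 2 fell (-0.03) and of 20 KIT, PI3-kinase and dormancy genes 2 rose and 8 fell (-0.10). Of these, the Notch counts moved most with single arrays: 1 rose without E17.5 WT 1, E17.5 WT 2 or P0 KO 3 and 2 without P0 KO 1, and 0 fell without E17.5 WT 2 and 1 without P0 KO 2 or 3. In the dormancy list 0 rose without E17.5 WT 1 or P0 KO 3 and 1 without any other array, and in the hedgehog list 0 rose without E17.5 WT 1, E17.5 WT 2 or P0 KO 2, and 1 fell without E17.5 WT 1 or P0 KO 2. Against P0 WT, 14 of the BMP, activin and TGF-beta genes were higher and 3 lower, beside 18.3% and 16.1% of all genes. Of the WNT genes 6 were higher and 0 lower than in P0 WT, and of the Notch genes 6 and 5. Of the hedgehog genes 2 were higher and 1 lower than in P0 WT, and of the dormancy genes 4 and 3. Hes5, a Notch target gene, was above both stages at -0.94, -1.56 and -1.68 in P0 KO against -2.48, -2.36 and -2.60 in E17.5 WT and -2.96, -2.93 and -3.15 in P0 WT (1.05 ± 0.19 and 1.62 ± 0.18), without overlap. Its relative Hey1 was lower than in E17.5 WT by -0.47 (not called without E17.5 WT 2, -0.43, or P0 KO 2, -0.35) and than in P0 WT by -1.04. Hey1 was not called below both together (adjusted p = 0.131). Of 28 HOX genes 4 rose and 5 fell (0.01), with 10 higher and 0 lower than in P0 WT. Of 22 fetal growth and imprinted genes 4 rose and 5 fell (0.02), with 12 higher (18.3% of all genes were) and 0 lower than in P0 WT. Of HOX genes 2 rose without E17.5 WT 1 or P0 KO 2, and of imprinted genes 2 without E17.5 WT 1 or P0 KO 1. Igf2, the fetal growth factor gene, was at 5.82, 5.97 and 5.91 in E17.5 WT, at 5.86, 5.74 and 5.49 in P0 KO and at 5.0, 4.94 and 5.16 in P0 WT, which gave -0.18 (interval -0.43 to 0.08) and 0.66 ± 0.11 (adjusted p = 0.000726). H19 and Cdkn1c, genes that restrain fetal growth, fell by -0.41 (not called without E17.5 WT 2, -0.31) and -0.63 and were 0.62 and 0.67 above P0 WT, with adjusted p-values of 0.295 and 0.206 for lying between the stages, so neither was called there. Among 32 cell division genes 4 rose and 4 fell (-0.10), and 12 were lower (16.1% of all genes were) and 0 higher than in P0 WT. Of them 1 rose without E17.5 WT 2, E17.5 WT 3, P0 KO 1 or P0 KO 3, while 0 fell without E17.5 WT 1, 1 without P0 KO 2 and 2 without E17.5 WT 2, P0 KO 1 or P0 KO 3. Their median within the shared slide was -0.21. Of 26 processing body and deadenylation genes 9 rose and 2 fell (0.24; 1 fell without E17.5 WT 2, E17.5 WT 3, P0 KO 2 or P0 KO 3), and of 4 ELAV family genes 0 rose (1 without P0 KO 1) and 1, Elavl2, fell.

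Markers of neighbouring cell types were measured beside these results. Of 20 endothelial genes 6 rose (18.4% of all genes did), 4 fell (16.9%) and 5 were above both stages (3.46%), and the summed level was 5.67 to 5.71 in E17.5 WT, 6.0 to 6.04 in P0 KO and 5.47 to 5.71 in P0 WT. Cldn5, the endothelial tight junction gene, lay at 0.80, 0.94 and 1.05, then 1.82, 2.23 and 2.28, then 1.53, 1.43 and 1.78 (1.26 ± 0.13 and 0.53 ± 0.12), and the defining markers Pecam1 and Cdh5 gave 0.01 and 0.28 against E17.5 WT, neither called, though Cdh5 was without E17.5 WT 3 (0.37) or P0 KO 2 (0.38). Against P0 WT, Pecam1 (0.60 ± 0.09, adjusted p = 0.000379) and Cdh5 (0.57 ± 0.12, adjusted p = 0.00331) were higher. Of the 20 endothelial genes 12 were higher than in P0 WT (18.3% of all genes were) and 1 lower (16.1%). Of 10 smooth muscle genes 6 rose and 0 fell (median 0.36), of 25 stroma and matrix genes 7 rose and 1 fell (0.10), of 14 surface epithelium genes 4 rose and 0 fell (0.05), of 15 mesonephros, rete and oviduct genes 1 rose and 1 fell (-0.04), of 12 Sertoli genes 3 rose and 2 fell (0.12) and of 13 adipose and skeletal muscle genes 4 rose and 2 fell (0.29). Of the smooth muscle genes 3 rose without E17.5 WT 1, E17.5 WT 2, P0 KO 1 or P0 KO 2, and their median within the shared slide was 0.21. Of the Sertoli genes 1 rose without E17.5 WT 1 or E17.5 WT 2 and 1 fell without E17.5 WT 1 or P0 KO 3, and of the adipose and muscle genes 1 fell without E17.5 WT 1, E17.5 WT 2 or P0 KO 3. The 1 stroma gene that fell was not called without E17.5 WT 2, P0 KO 1 or P0 KO 2, and 2 mesonephros genes fell without P0 KO 2. Of 23 interferon response genes 7 rose (13 without P0 KO 1) and 0 fell (1 without P0 KO 3), with a median of 0.51, among them the class I gene H2-K1 (1.24 ± 0.13, adjusted p = 3.17e-05), while Ifit1 ran from -3.13 to -0.15 across the P0 KO arrays with P0 KO 3 highest and was not called (1.75 ± 0.68, adjusted p = 0.062; called without P0 KO 1, 2.40). Whether a shift of cell types had a part in the germ cell results was not tested.

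**Figure D5:**
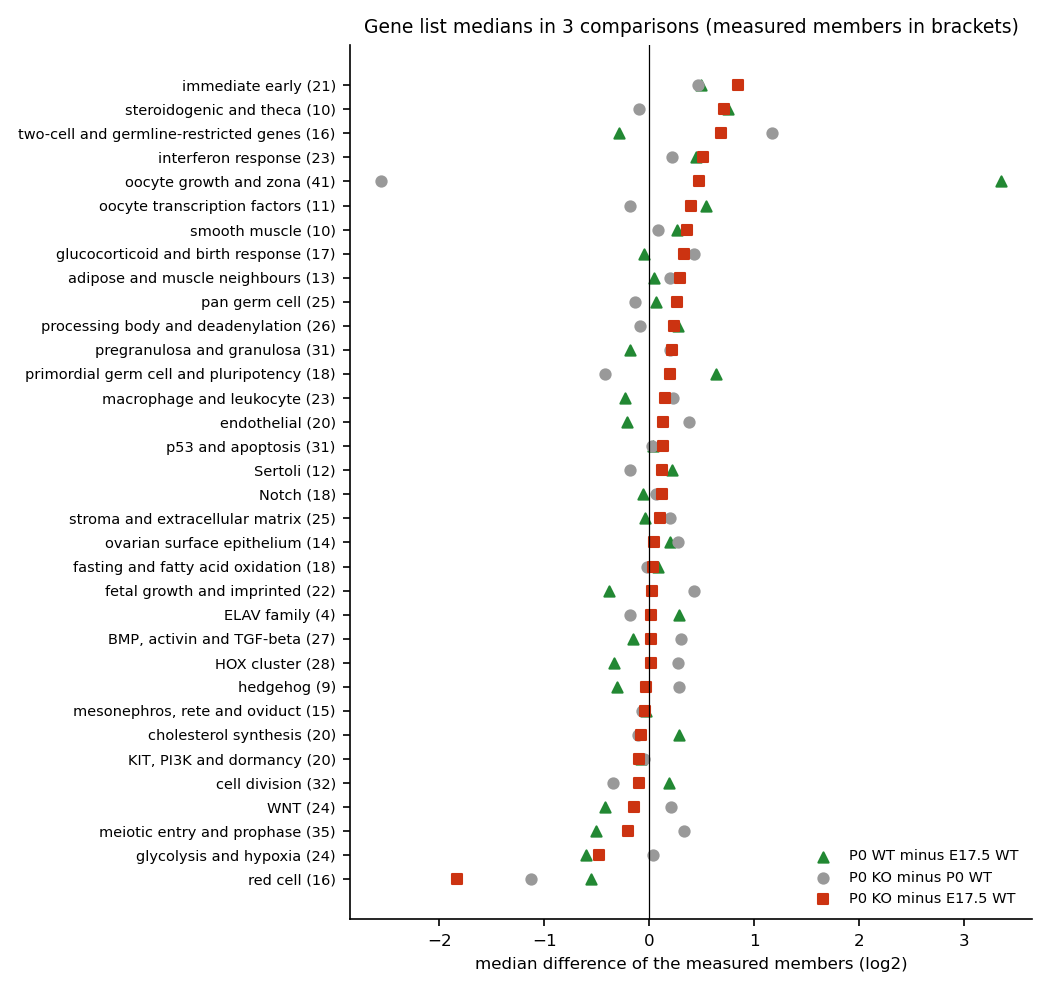
Median log2 difference of the measured members of 34 gene lists in 3 comparisons that share arrays, ordered by the difference of P0 KO from E17.5 WT. The oocyte growth list is at 0.47 against E17.5 WT, -2.55 against P0 WT and 3.35 between the wild type stages, and the red cell list is lowest at -1.83.

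Lists tied to birth and metabolism gave mixed counts, where 18.4% of all genes rose and 16.9% fell. Of 17 genes of the glucocorticoid and birth response 8 rose and 3 fell (median 0.33), of 18 fasting and fatty acid oxidation genes 6 rose and 2 fell (0.03), and of 20 cholesterol synthesis genes 6 rose and 5 fell (-0.08). Without E17.5 WT 1, 5 of the glucocorticoid and 3 of the fasting genes rose, and without P0 KO 2, 4 of the fasting genes fell. Of 18 genes of primordial germ cells and pluripotency 4 rose and 1 fell (0.20), and 7 were lower than in P0 WT (16.1% of all genes were). Of these 2 rose without E17.5 WT 1, E17.5 WT 2 or P0 KO 3, and 2 fell without E17.5 WT 3 or P0 KO 3. Dnd1, an RNA-binding protein gene of primordial germ cells, rose from -0.51, -0.51 and -0.20 in E17.5 WT to 0.68, 0.70 and 1.17 in P0 KO, beside 0.41, 0.29 and 0.09 in P0 WT (1.29 ± 0.16, adjusted p = 9.2e-05). Of 11 oocyte transcription factor genes 2 rose and 1 fell (0 without E17.5 WT 2; median 0.40), and that median was 0.72 within the shared slide and 0.18 without E17.5 WT 1.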

How the data were processed

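RNA of 18 mouse ovary samples, 3 per group in 6 groups, was hybridised in 1 colour (Cy3) to Agilent arrays of design 014868. The deposited intensity values are, per the file headers, processed signals of Agilent Feature Extraction 10.7.3.1 (background subtracted, protocol GE1_107_Sep09); the submitters' processing notes name version 9.5, and the difference is unresolved. The deposited series matrix holds log2 values, which equal log2 of these signals plus 1 constant per array and served as an alternative. Probe coordinates in the headers are of mm9 and were not used.

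Of 41174 non-control probes, 29194 passed the filter, which asks that some group has all 3 of its arrays well above background. Each gene took its brightest probe, which left 19294 genes. RefSeq accessions named 28223 probes, changing 1471 names, and 12951 kept the name in the file. Log2 signal less the 75th percentile of the array was fitted with limma 3.58.1 (R 4.3.3) over 6 groups with scan day as a term and 11 residual degrees of freedom. Tables and figures used Python 3.11.15 with pandas 2.3.3, numpy 2.4.6 and matplotlib 3.10.9. P-values were adjusted by Benjamini-Hochberg and called under 0.05. Above, below or between both stages required the larger p of both differences to pass. The procedure was tested on simulated data.

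Genes named by rule were the 10 largest rises and 10 largest falls without overlap, the 8 above both and the 8 below both stages with the largest smaller difference, the 8 on either side of P0 WT whose interval lay within 1 log2 unit of E17.5 WT, the 4 or fewer members per list that ranked first by adjusted p, and Elavl2. Some genes the rule selects are not reported here. Other genes named were chosen after their values were seen. The lists, the members and the rule were chosen with earlier results of these data known. Alternatives changed the background correction, scaling, filter, probe choice, moderation, weights, scan day and slide terms, arrays fitted, replicate block and each array in turn. Arrays were not paired by replicate number in the main fit. Same-numbered P0 KO and E17.5 WT arrays had correlations of their deviations of 0.07, -0.07 and 0.03, and differently numbered ones -0.10 to 0.08. So few correlations cannot exclude a pairing.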

Additional observations from a re-analysis of the deposited data

How the results depend on the processing

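The number of genes called between P0 KO and E17.5 WT, 6798, ranged from 5350 with the E17.5 WT and P0 arrays only to 7369 with array weights. It ran from 4828 to 6850 when 1 array was left out. No count is given within the shared slide, where 1 P0 KO array is left. Calls that were also at least 2-fold apart numbered 1187. With the replicate block 6228 genes were called, 544 above and 275 below both stages and 3 between, and the block changed no count by more than 1.5 times. Genes above both stages numbered 207 with the E17.5 WT and P0 arrays only, 1447 when both differences were called on their own, and 365 to 662 with 1 array left out. Those below both numbered 89 with array median scaling, 39 with the E17.5 WT and P0 arrays only, 994 called on their own, and 198 to 301 with 1 array left out. Genes between the stages numbered 24 with normexp and quantile normalization, 1 with quantile normalization, 1 without a filter, 6 with the stricter filter, 7 without the scan day term, 7 with trended and robust moderation, 34 with array weights, 1 with slide as a random block, 548 called on their own, and 0 to 13 with 1 array left out. The distances of P0 KO to E17.5 WT and P0 WT were 0.428 and 0.435 with normexp and quantile normalization, and 0.559 and 0.535 with the stricter filter, which uses 15836 genes. With the mean of a gene's probes in place of the brightest probe, Lss (-0.23) and Mtor (0.53) turned their sign. For these settings the cause was not tested, except that fewer arrays or genes enter where they were left out. Of 3601 values of 182 called genes under 20 settings, 3391 kept sign and call, 208 lost the call and 2 turned. Without a filter the median of all genes was 0.13. Probes near background limit what can be measured: a gene below it in a group has only a bound there.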
